A study of Drosophila melanogaster with 2 samples.

Results

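The elav family of Drosophila melanogaster consists of 3 genes for RNA-binding proteins, elav, fne and Rbp9. They were taken by name, as 3 of the 13945 protein-coding genes on the 6 main chromosome arms, and all peaks of Med with a summit in the gene span or within 5000 bp on either side were described. Med encodes Medea, the Smad protein that enters the nucleus with receptor-activated Smads when BMP or activin receptors are active. There was 1 group and no contrast between conditions: whole embryos of both sexes, collected from 0 to 24 h, of the transgenic strain Med-GFP, which stably carries Med fused to eGFP at its C terminus. Chromatin was sonicated to 200 to 800 bp and precipitated with an antibody against GFP. The 2 libraries are biological replicates, numbered 2 and 3, from separate biosamples of the same line. They map the tagged protein in the whole animal, so strong binding in few cells and weak binding in many cannot be told apart.

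The family gave its name to a class of RNA-binding proteins shared by flies and vertebrates, whose members bind U-rich stretches through RNA recognition motifs. ELAV is made in all neurons, sits in the nucleus, and directs neuron-specific splicing and the use of distal polyadenylation sites. FNE (found in neurons) is also neuronal and largely cytoplasmic, and RBP9 is made in the nervous system and in the ovary. In the fly nervous system BMP signals reach the nucleus of motor neurons from their muscle targets, and in the early embryo they repress neural fate on the dorsal side.

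Positions are in build dm6 and count from 1. Each peak has a summit, its position of highest signal, and a signal, a value deposited by the authors that measures its strength. No source states the scale of the signal, so strengths were compared within a list only. Each replicate had its own list of 30000 peaks, and a pooled list of 30000 was called on both replicates at once, and these 3 reach down to weak peaks. The reproducible list, thresholded by the authors on the irreproducible discovery rate, held the top 5867 peaks of the pooled list, with signals from 165 to 8099 and a median of 282. The depth of the libraries is unknown from these files.

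The members ranged from 2 strong peaks at the start of elav, through 1 weak reproducible peak inside Rbp9, to no reproducible peak at fne. The windows reaching 100 bp to either side of the summits that carry this contrast are shown on the strand of the gene, to let the promoter and intron sites of elav be set beside those of Rbp9 and fne. Capitals mark every match, on either strand, to the Smad box GTCT, the GC-rich Mad site GCCGNC, the GAGA site GAGAG and the E-box CAGCTG.
elav, upstream of the start, chrX:523368-523568, minus strand, signal 1255: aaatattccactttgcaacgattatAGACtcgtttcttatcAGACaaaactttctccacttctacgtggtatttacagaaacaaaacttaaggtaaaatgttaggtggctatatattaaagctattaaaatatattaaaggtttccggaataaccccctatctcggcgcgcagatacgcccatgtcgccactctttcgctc
elav, intron, chrX:522524-522724, minus strand, signal 890.4: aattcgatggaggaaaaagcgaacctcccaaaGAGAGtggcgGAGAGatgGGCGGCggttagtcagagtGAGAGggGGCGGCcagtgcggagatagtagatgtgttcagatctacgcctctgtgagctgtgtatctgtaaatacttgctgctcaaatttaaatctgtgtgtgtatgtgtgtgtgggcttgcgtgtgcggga
Rbp9, intron, chr2L:2957711-2957911, plus strand, signal 201.3: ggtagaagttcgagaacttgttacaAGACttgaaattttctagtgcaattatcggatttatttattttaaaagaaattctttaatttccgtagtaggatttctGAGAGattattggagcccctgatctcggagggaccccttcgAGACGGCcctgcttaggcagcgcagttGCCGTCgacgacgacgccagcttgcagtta
fne, upstream of the start, chrX:12916813-12917013, plus strand, signal 118: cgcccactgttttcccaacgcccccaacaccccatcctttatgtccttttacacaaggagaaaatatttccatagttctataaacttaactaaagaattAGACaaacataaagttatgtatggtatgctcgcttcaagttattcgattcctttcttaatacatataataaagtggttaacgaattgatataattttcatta
fne, intron, chrX:12923408-12923608, plus strand, signal 132: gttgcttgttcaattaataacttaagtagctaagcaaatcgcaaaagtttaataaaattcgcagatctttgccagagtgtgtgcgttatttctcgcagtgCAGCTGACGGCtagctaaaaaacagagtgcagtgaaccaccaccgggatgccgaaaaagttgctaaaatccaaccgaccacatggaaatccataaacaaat

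The elav windows held different matches. The upstream window had 2 Smad boxes, starting 75 and 59 bp before the summit in the direction of transcription, and no GC-rich Mad or GAGA site. The intron window had no Smad box. It had 2 GC-rich Mad sites, starting 50 and 24 bp before the summit, and 3 GAGA sites, starting 68, 58 and 31 bp before it. The intron window of Rbp9 had both kinds of Smad-related match: Smad boxes at 75 bp before and 44 bp after the summit and GC-rich Mad sites at 45 and 71 bp after it, the first of which overlapped the second Smad box. It also had 1 GAGA site, 3 bp after the summit. At fne the upstream window had 1 Smad box, starting 1 bp before the summit. The fne intron window had an E-box that began on the summit itself and a GC-rich Mad site 5 bp after it, which overlapped the E-box. The window of the third elav summit held none of these letters. In all, 3 of the 5 reproducible windows of the loci held a Smad box, 2 a GC-rich Mad site, 2 a GAGA site and 0 the E-box CAGCTG. Over all 5867 reproducible summits, windows of this length held a Smad box in 55.1% of cases, a GC-rich Mad site in 16.9%, a GAGA site in 23.8% and the E-box in 10.8%. None of the 7 windows searched, 5 reproducible and 2 of fne, held the palindromic Smad box GTCTAGAC or the Mad-Medea-Schnurri silencer element, each present in 0.170% of all windows. The Zelda site CAGGTA (4.26% of all windows), the DRE TATCGATA (5.71%), the M1BP motif GGTCACACT (3.34%) and the E-box CACCTG (6.14%) were also not found in the 7. The TATA letters TATAAA, in 28.0% of all windows, were found in the fne upstream window and in that of the second reproducible peak of the Rbp9 locus. A match is a run of letters and was not tested as a site.

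elav (FBgn0260400) lies on the X chromosome from 509235 to 523226 on the minus strand and has 4 annotated transcripts with 2 start sites (TSSs), at 523226 and 520285. Almost all of the gene lies opposite arg, the arginase gene, which runs on the plus strand from 509435 to 528028. The strongest peak of the locus, from 523295 to 523665, had its summit 242 bp upstream of the first elav TSS, in an intron of arg. Its signal was 1255 in the reproducible list, where it ranked 194, with 642 in replicate 2 and 623 in replicate 3. The replicates placed its summit 19 and 4 bp from the pooled one and ranked it 154 and 251 of 30000.

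A second strong peak, from 522494 to 522767, had its summit 602 bp downstream of the same TSS, in an intron of elav. It also lies in introns of arg and of lncRNA:enrr, a non-coding RNA gene that overlaps elav on the same strand. It had 332 in replicate 2, 557 in replicate 3 and 890.4 in the reproducible list (rank 445). The replicate summits lay 1 and 0 bp from the pooled one. The spacing of both summits was 844 bp in the reproducible list, 864 bp in replicate 2 and 840 bp in replicate 3. So the first TSS of elav was flanked by a summit on each side in both replicates. With 2 reproducible summits within 1000 bp of 1 TSS, elav was among the 4.44% of protein-coding genes that had 2 or more.

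The third reproducible peak of the elav locus, from 526619 to 526766, lay 3468 bp upstream of the first TSS. It lies in an intron of arg, and the nearest TSS, 3155 bp away, belongs to CG4293. Its signal was 314 (rank 2531), with 139 in replicate 2 and 172 in replicate 3, and both replicates had the summit at the same base. Its width of 148 bp was below the median of 359 bp in the list. No other protein-coding gene had a TSS within 1000 bp of any of the 3 summits.

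Below the reproducible list, elav carried a row of weak peaks. The strongest, 1262 bp upstream of the first TSS, had a signal of 157 and rank 6183 in the pooled list, against 165 at the end of the reproducible list. It had 46.1 in replicate 2 and 99.6 in replicate 3. Summits at 515916, 513579 and 512761 lay in the long 3′ UTR of elav, with signals of 131, 91.4 and 106. The first of them had 23.5 in replicate 2 and 110.2 in replicate 3, a log2 ratio of 2.23. The summit at 512761 overlapped no peak of replicate 2 and had 51.1 in replicate 3. The second TSS of elav, at 520285, had weak summits 224 and 427 bp upstream, with signals of 62.4 and 60.8. Their deposited −log10 q values, higher for more certain calls, were 0.42 and 0.39, against a ceiling of 3.95. Both overlapped replicate 3 peaks only. So did a summit 1214 bp downstream of the first TSS, with 73.5 in the pooled list and 63.0 in replicate 3, whereas replicate 2 alone had one of 27.7, 978 bp upstream of the second TSS. Of the 10 pooled peaks at elav, 6 had a summit of each replicate list within 100 bp and the other 4 had one in replicate 3 only.

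**Figure D1:**
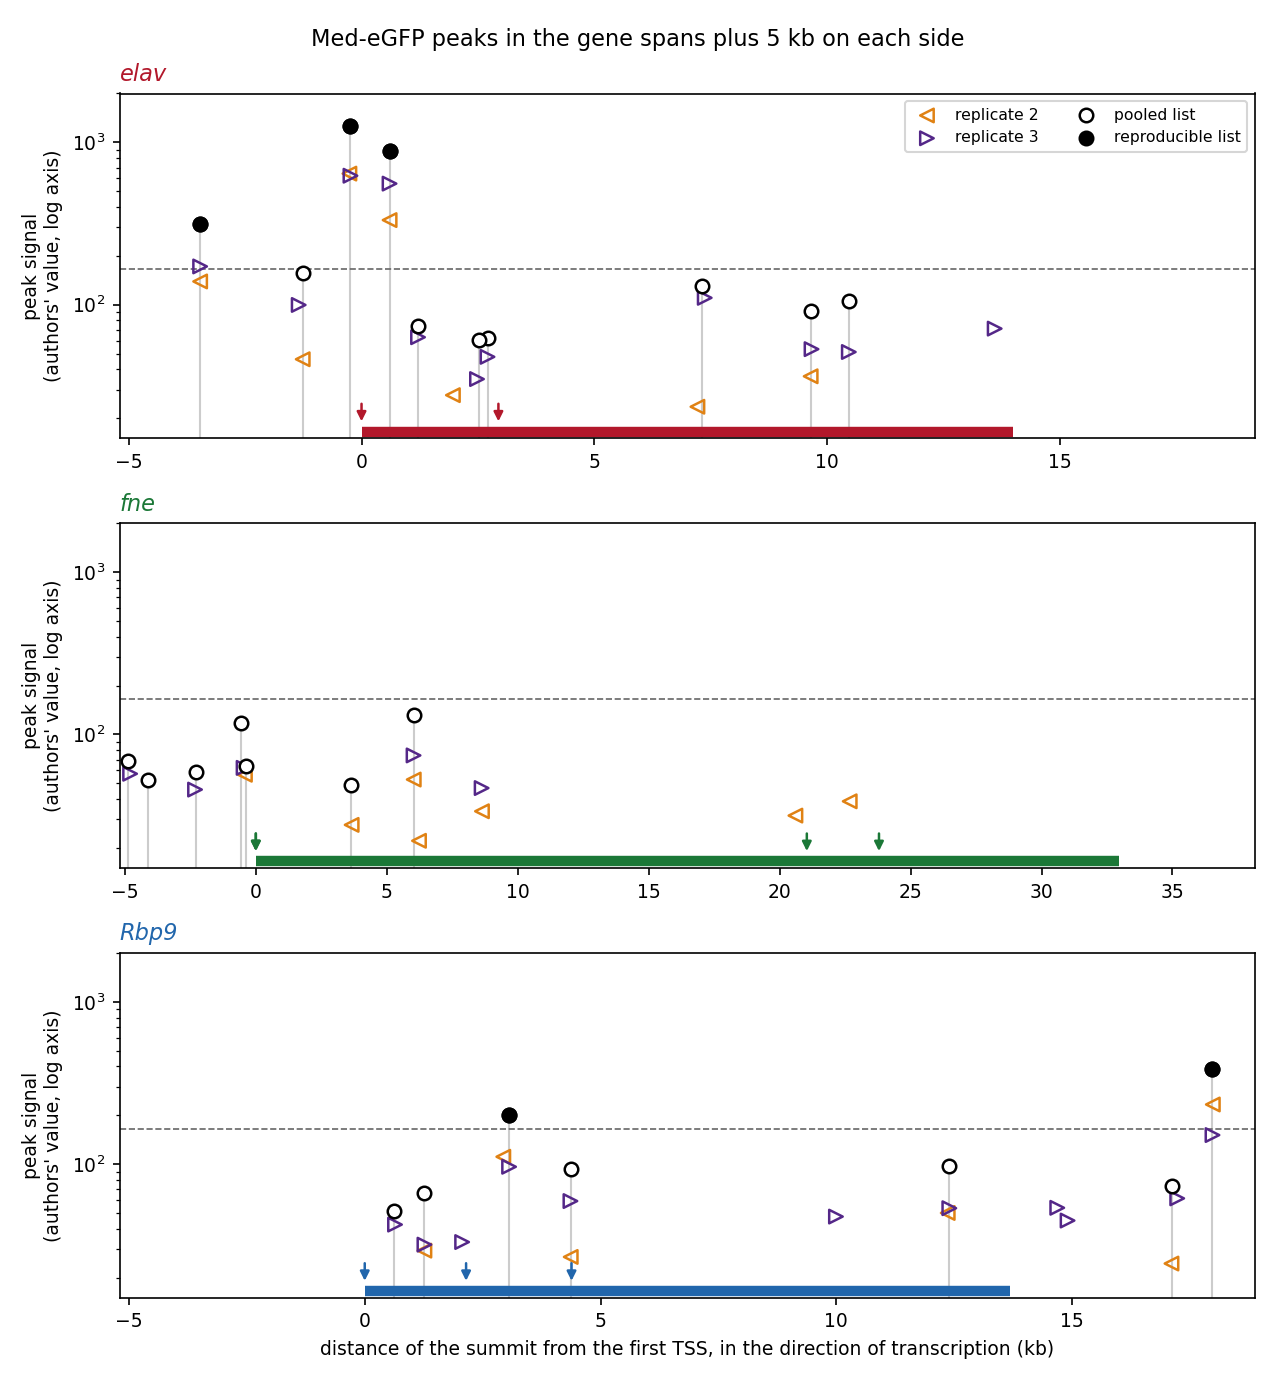
Signal of every peak with its summit in elav, fne or Rbp9 or within 5000 bp of the gene, on a log axis, against the distance of the summit from the first TSS in kb, positive in the direction of transcription. Coloured bars are the gene spans and arrows the TSSs, triangles are the replicate lists, open circles the pooled list and filled circles the reproducible list, whose lower limit is the dashed line at 165. Filled circles stand on both sides of the first elav TSS at 1255 and 890.4, and no filled circle stands in the fne panel.

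Rbp9 (FBgn0010263) lies on chromosome arm 2L from 2954762 to 2968434 on the plus strand, with 9 transcripts and 3 TSSs, at 2954762, 2956911 and 2959147. One reproducible peak lay in the gene, from 2957623 to 2957998, in an intron 900 bp downstream of the second TSS. Replicate 2 gave it 111 and replicate 3 gave it 96.3, and in the reproducible list it stood at 201.3 and ranked 4571. The replicates differed in where they placed it. The summit lay at 2957700 in replicate 2, 111 bp from the pooled summit, and at 2957823 in replicate 3, 12 bp from it. In replicate 3 the peak ranked 6561, which is outside the 5867 strongest, and in replicate 2 it ranked 3296.

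Each Rbp9 TSS had a weak peak of the pooled list nearby. The −log10 q values of these peaks were low, 0.26 at the first TSS, 0.48 at the second and 1.05 at the third. The share of all TSSs with such a weak peak is not given here. The third TSS had a summit 20 bp upstream with a signal of 92.9, and 26.8 in replicate 2 and 59.2 in replicate 3, where the summits lay 17 and 23 bp upstream. Both replicates thus held a summit almost on this TSS. The second TSS had a summit 896 bp upstream at 66.2 (29.3 in replicate 2 and 31.9 in replicate 3), and replicate 3 alone had another 84 bp upstream, at 33.1. The first TSS had one 622 bp downstream, in the 5′ UTR, with a signal of 51.5, which overlapped a replicate 3 peak of 42.4 and no peak of replicate 2. A summit in the 3′ UTR, at 2967158, had 97.7, with 49.96 in replicate 2 and 53.5 in replicate 3. It was the strongest peak of the locus outside the reproducible list, at rank 10669. Replicate 3 alone had another 3′ UTR summit, at 2964754, of 47.5.

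The stronger reproducible peak of the Rbp9 locus lay at other genes. It ran from 2972546 to 2972921, with its summit between Rrp1, the gene of an apurinic endonuclease, and gammaTub23C, a γ-tubulin gene, 157 bp from the TSS of the second. Its signal was 387 (rank 1868), with 233 in replicate 2 and 151 in replicate 3. Both genes have a TSS within 1000 bp of the summit, whereas the nearest TSS of Rbp9 is 13587 bp away. In replicate 3, 2 weak peaks of 53.8 and 44.9 lay at the start of Ts, the thymidylate synthase gene that overlaps the end of Rbp9, and replicate 2 held none there. A pooled peak of 73.3 in the coding sequence of Rrp1 had 24.4 in replicate 2 and 61.5 in replicate 3. The 5000 bp upstream of Rbp9, which hold the end of lilli, had no summit in any of the 4 lists.

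fne (FBgn0086675) lies on X from 12917477 to 12950417 on the plus strand and has 11 transcripts and 4 TSSs, of which 12917477 and 12917484 lie 7 bp apart and 12938517 and 12941272 lie far downstream. No reproducible summit fell in the 42941 bp of the locus, and the nearest to its first TSS, with a signal of 167, lay 16229 bp upstream. The strongest fne peak of the pooled list, from 12923320 to 12923695, had its summit 6024 bp downstream of the TSS at 12917484, in an intron. It had 52.7 in replicate 2, 74.2 in replicate 3 and 132 in the pooled list (rank 7478). The replicate summits lay 1 and 5 bp from the pooled one. It was the only one of the 7 fne peaks of that list with a summit of each replicate within 100 bp.

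At the first fne TSS the lists disagreed in detail. The pooled list had 2 overlapping peaks there, with summits 564 and 359 bp upstream and signals of 118 and 63.5 (−log10 q 1.71 and 0.44). Each replicate held a single peak between them, at 56.4 with its summit 413 bp upstream in replicate 2 and at 62.2 with its summit 463 bp upstream in replicate 3. The replicate summits lay 50 bp from each other, and 54 to 151 bp from those of the pooled list. A peak 8630 bp downstream of the TSS in replicate 2 (33.6) and 8618 bp downstream in replicate 3 (46.7) was matched between the replicates within 12 bp but was missing from the pooled list.

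Upstream of the promoter, pooled summits of 68.5 and 58.8 lay in exons of the non-coding RNA genes lncRNA:CR45625 and lncRNA:CR45626 and overlapped peaks of 57.2 and 45.7 in replicate 3 and none in replicate 2. A pooled summit of 52.4 between these genes overlapped no replicate peak, and one of 49.1 in the fne intron overlapped a peak of 27.7 in replicate 2 only. The downstream TSSs of fne had peaks in replicate 2 only, at 31.6, 436 bp upstream of 12938517, and at 38.7, 1118 bp upstream of 12941272. Replicate 2 alone also had a peak of 22.1 beside the strongest intron peak. Beyond the second of these, the last 15.3 kb of the locus held no summit in any list, and this stretch includes the end of the neighbouring gene hec. A transposable element of 7057 bp, HMS-Beagle, is annotated in an fne intron from 12930633 to 12937689, and no list had a summit in it. Whether reads could be placed in this element is unknown from these files, so binding there is not shown to be absent.

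The 2 strongest peaks held 68.3% of the summed pooled signal at elav, 60.7% at Rbp9 and 46.1% at fne. In replicate 2 these shares were 78.1% at elav, 72.5% at Rbp9 and 41.5% at fne. In replicate 3 they were 62.7% at elav, 36.6% at Rbp9 and 47.7% at fne, so the order of Rbp9 and fne differed between the replicates. The share also depends on how many peaks are listed. Rbp9 had 6 in replicate 2 and 11 in replicate 3, and fne had 7 and 5. At Rbp9 one of both strongest peaks is that between Rrp1 and gammaTub23C. Per 10 kb of locus, reproducible summits numbered 1.25 at elav, 0.845 at Rbp9 and 0 at fne, against a median of 0.654 and a range from the 5th to the 95th percentile of 0 to 2.56 over all protein-coding genes treated the same way. At least 1 reproducible summit lay in the span plus flanks of 2 of the 3 members, against 58.1% of all genes, and at least 3 lay at elav, against 14.3% of all genes. In the pooled list the density was 4.17 peaks per 10 kb at elav, 2.96 at Rbp9 and 1.63 at fne, with a median of 3.29 over all genes.

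**Figure D2:**
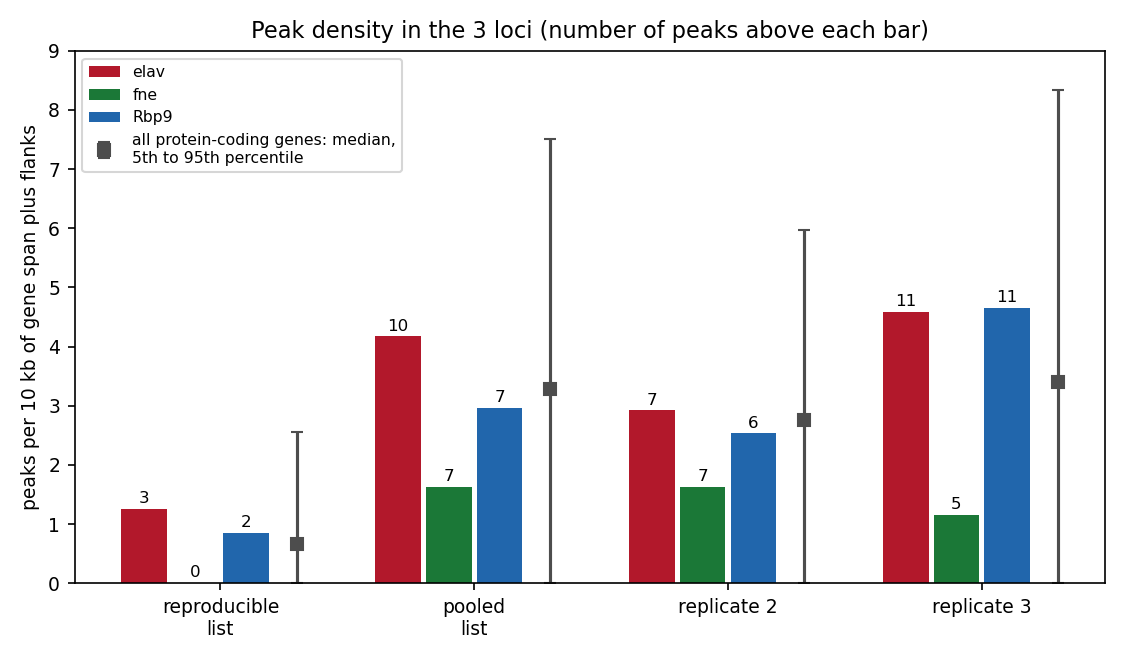
Peaks per 10 kb of gene span plus 5000 bp on each side, in the reproducible, pooled and replicate lists. Coloured bars are elav, fne and Rbp9 with the number of peaks written above, and grey squares with bars are the median and the range from the 5th to the 95th percentile over 13945 protein-coding genes. The fne bars are the lowest in every list, and each member lies between those percentiles.

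The number of peaks at each locus, strong and weak together, differed between the replicate lists. Replicate 3 held 11 peaks at elav and 11 at Rbp9, whereas replicate 2 held 7 and 6. At fne replicate 3 held 5 and replicate 2 held 7. Per 10 kb of locus, fne was lowest in both, with 1.16 in replicate 3 and 1.63 in replicate 2. By that measure elav had 4.58 and 2.92, and Rbp9 had 4.65 and 2.53. Of the 7, 6 and 7 replicate 2 peaks at elav, Rbp9 and fne, 5, 4 and 3 had a replicate 3 summit within 100 bp. Over the whole list 39.2% of replicate 2 peaks had one. Of the 11, 11 and 5 replicate 3 peaks at elav, Rbp9 and fne, 5, 4 and 3 had a replicate 2 summit that near. The share over all replicate 3 peaks was also 39.2%. Among the 19 weaker pooled peaks of the loci, 36.8% had a summit of each replicate within 100 bp, against 27.4% of all peaks below the reproducible list. Of the 5 reproducible peaks 4 did, against 90.9% of all reproducible peaks, and the fifth is that of the Rbp9 intron. Over both kinds, 11 of 24 peaks did, or 45.8% (exact binomial 95% interval 25.6 to 67.2, for counting error only), against 39.8% of all peaks in the list.

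The ratio of replicate 3 to replicate 2 signal differed between the peaks. It was -0.04 on the log2 scale at the upstream elav peak, 0.74 at the elav intron peak and 0.30 at the distal elav peak. It was -0.21 at the Rbp9 intron peak and -0.63 at the peak between Rrp1 and gammaTub23C. Over the 5553 reproducible peaks that overlapped peaks of both replicates the median was 0.33 with an SD of 0.75, so the upstream and intron peaks of elav deviated from it in opposite directions, each by less than 1 SD. The peak at Rrp1 and gammaTub23C had 2.97% of all peaks below it. One ratio per peak has no error of its own, and the replicate lists can differ in scale.

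**Figure D3:**
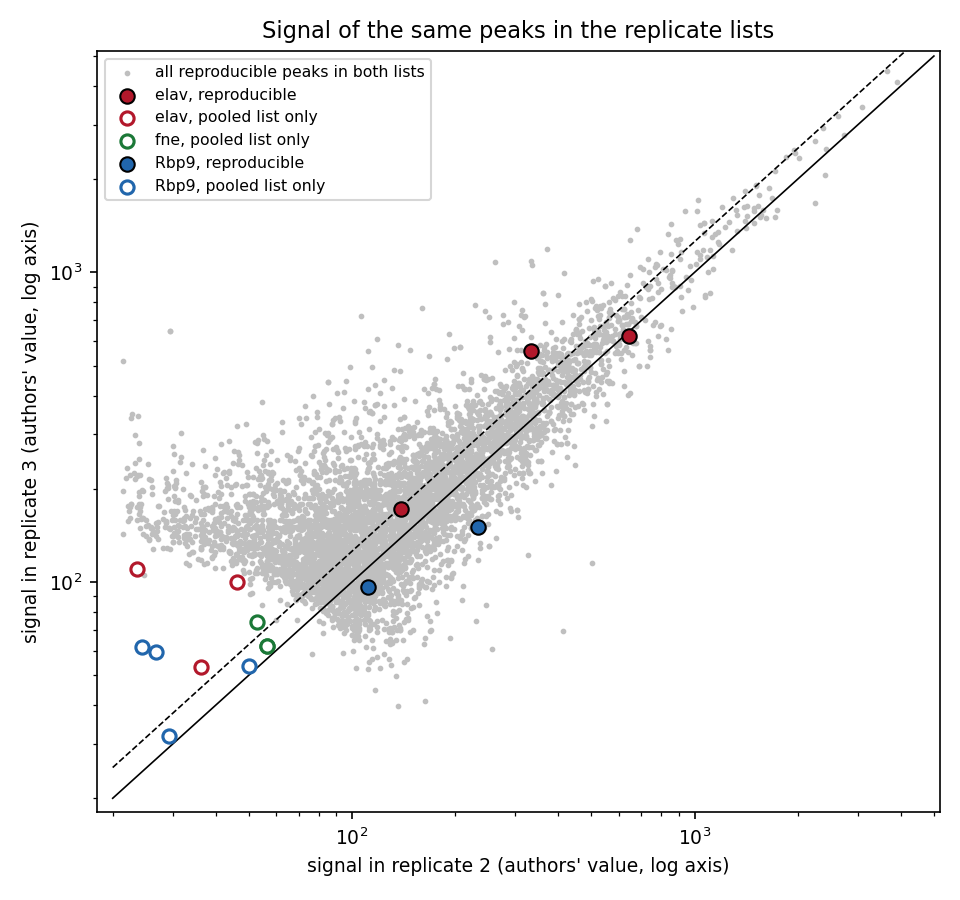
Signal of the same peak in replicate 3 (vertical, log axis) and replicate 2 (horizontal, log axis). Grey points are 5553 reproducible peaks, and filled circles are the reproducible peaks of the elav and Rbp9 loci. Open circles are the weaker pooled peaks of the 3 loci that overlap a peak of each replicate list. The fne peaks at 12916913 and 12917118 overlap the same replicate peaks and share a point at 56.4 and 62.2. The solid line is equal signal and the dashed line the median log2 ratio of 0.33. The upstream elav peak lies at 642 and 623, and the weaker peaks of all 3 loci lie at the low end of both axes.

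A reproducible summit lay within 1000 bp of a TSS at elav and Rbp9 and at no TSS of fne, against 31.3% of all protein-coding genes that had one. Genes with as many TSSs had one more often: 42.9% of 2566 genes with 2 TSSs as at elav, 57.7% of 693 with 3 as at Rbp9, and 68.0% of 250 with 4 as at fne. With its 1255, elav took place 215 among the 4360 genes with such a summit, ordered by their strongest, so 4.91% of them were stronger. The call at Rbp9 rests on a summit 900 bp from the TSS and was lost at 500 bp and in the strongest peaks of replicate 3 alone.

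The genes nearest to elav in the plane of replicate 2 and replicate 3 promoter signal, over 2 samples, were Reg-5 (653 and 637, a distance of 0.040 in log2 units), CG4496 (657 and 595, a distance of 0.074) and CG32767 (609 and 637, a distance of 0.083). Nearest to Rbp9 were CG4615 (112 and 96.5, a distance of 0.0045) and CG14767 and gcl, which share a summit (109 and 96.7, a distance of 0.035). Such neighbours share the level in these libraries, which is all that the measure uses.

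Genes linked to the family were counted in 5 lists, which were chosen with earlier results of these data known. Of 13 genes reported as RNA targets of ELAV in the fly, 9 had a promoter summit (69.2%, against 31.3% of all genes). The strongest were brat, a translational repressor and growth suppressor gene (signal 1005, with 460.1 in replicate 2 and 553 in replicate 3), AGO1, the Argonaute gene of the microRNA pathway (717, a summit shared with CG33155 and mRpL53), nej, the fly CBP gene (625), and Nrg, the gene of the adhesion protein Neuroglian (261). The median strongest signal of the 9 was 215, against 329 over all 4360 genes with a promoter summit. These targets had a median of 3 TSSs per gene, against 1 over all genes. Of all genes with 3 TSSs, 57.7% had a promoter summit. The part of TSS number in the count was not tested.

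A promoter summit was present at 31.3% of all genes and at 68.0% of genes with 4 TSSs. Among 16 other RNA-binding protein genes, with a median of 4 TSSs, 11 had one (68.8%). These were listed as neural by choice, and where else they are active was not taken into account. The 11 were led by shep (533), orb, whose protein controls translation through cytoplasmic polyadenylation and whose summit Cdc16 shares (530.3), ps, the fly Nova gene (529), and Sxl, the master gene of sex determination and a relative of the elav family in its RNA recognition motifs (475). The median strongest signal of the 11 was 443, against the same 329 over all genes. None of these reached the signal of elav. Over the strongest 5867 peaks of one replicate at a time, the count was 10 in replicate 2 and 13 in replicate 3. For the ELAV targets it was 8 in replicate 2 and 9 in replicate 3. The share over all genes was 29.7% in replicate 2 and 31.8% in replicate 3.

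Of 14 genes of differentiated neurons, the cells that ELAV marks, 2 had a promoter summit (14.3%, against 31.3% of all genes). They were Syx1A, a SNARE gene whose summit CG10694 shares (332), and Csp, a synaptic vesicle chaperone gene whose summit CG11523 shares (214). Of 10 neural precursor genes, 1 had one, pros, the homeobox gene that ends neuroblast fate (210.3, with 51.2 in replicate 2 and 159 in replicate 3). Of 7 glial genes 4 had one (57.1%, against 31.3% of all genes). These were moody, a G protein-coupled receptor gene of the blood-brain barrier (1731), nrv2, a Na,K-ATPase subunit gene (347), loco, an RGS gene (211, with no overlapping peak in replicate 2), and pnt, the ETS factor gene (174, with 26.8 in replicate 2 and 155 in replicate 3). The median number of TSSs was 2 in the neuron and glial lists and 1 in the precursor list. Of all genes with 2 TSSs, 42.9% had a promoter summit. The share among genes with 1 TSS, as in the precursor list, is not given here, and the 31.3% includes genes with more TSSs. Over the strongest 5867 peaks of one replicate, neuron genes numbered 3 in replicate 2 and 2 in replicate 3, precursor genes 1 and 2, and glial genes 2 and 4. Of all genes, 29.7% had a promoter summit there in replicate 2 and 31.8% in replicate 3. With the gene span plus 5000 bp on each side in place of the promoter, 8 of the 14 neuron genes (57.1%) had a reproducible summit, against 58.1% of all genes. By that measure the count was 12 of 13 for the ELAV targets, 12 of 16 for the other RNA-binding protein genes, 3 of 10 for the precursor genes and 7 of 7 for the glial genes. Longer spans can hold more summits, and the lengths of the listed genes were not taken into account in these counts. The lists are short and were not tested against each other or against all genes.

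**Figure D4:**
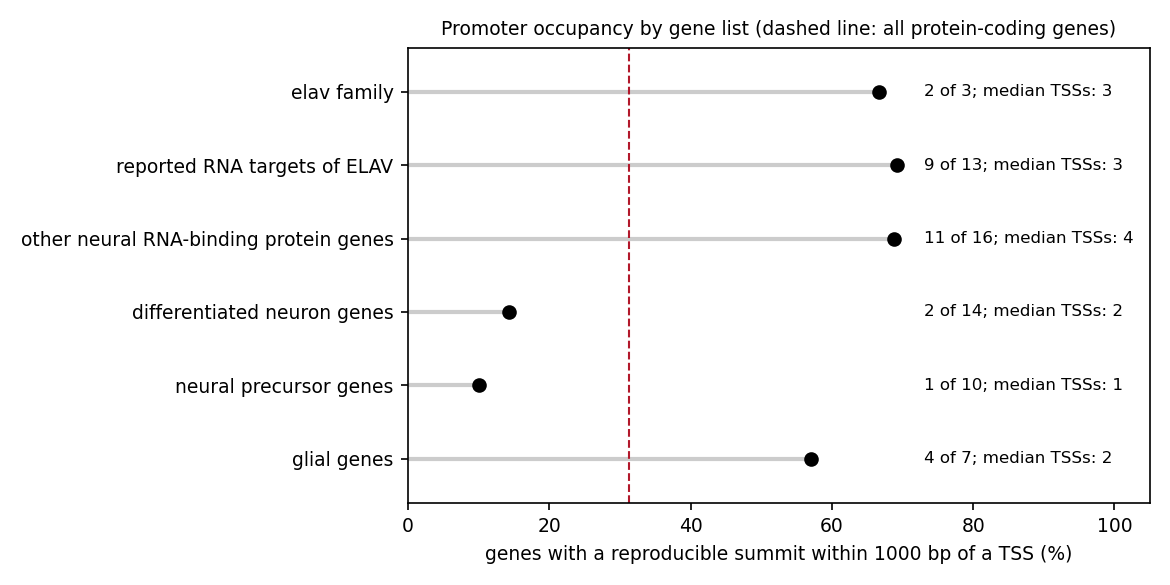
Percentage of genes with a reproducible summit within 1000 bp of a TSS in the elav family and 5 lists of related genes, with counts and the median number of TSSs per gene written beside each point. The dashed line is the 31.3% of all 13945 protein-coding genes. Among genes with 2, 3 and 4 TSSs the percentage was 42.9, 57.7 and 68.0, which the line does not show. That among genes with 1 TSS, the median of the precursor list, is not given here. Points for the family, ELAV targets, other RNA-binding protein genes and glial genes lie right of the line and those for neurons and precursors left of it.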

How the data were processed

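Chromatin immunoprecipitation followed by sequencing was done on 2 replicate libraries of 1 group, and peak lists were the starting point. Per the deposited manifests, relaxed peaks were called on each replicate and on both together against 1 control file, and an optimal list was derived from these by the irreproducible discovery rate. The sources used here name no aligner, caller, version or threshold. The signal value per peak (column 7) is the one the authors deposited. The deposited −log10 q value was shared at its ceiling of 3.95 by 76.0% of reproducible peaks and was not used to rank. The lists in build dm3 were not analysed here.

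Genes and TSSs came from Ensembl BDGP6.54, release 115, and sequence from RefSeq Release 6. All peaks lay within its arms, and 99.9% of 16213 annotated start codons read ATG in it. Peaks were assigned to a locus by summit and matched to replicate lists within 100 bp. Replicate signal is that of the strongest overlapping peak. Motifs were searched on both strands of windows reaching 100 bp to either side of a summit. No test was made, since there is 1 group. The counting was tested on simulated data. Members, lists and motifs were chosen with earlier results of these data known. Named were the members, genes with a TSS within 1000 bp of their reproducible summits, other genes of the loci with peaks, the 4 most strongly occupied genes per list and the 3 genes nearest in replicate signal. lilli, hec and CG4293 were added after the values were seen. Python 3.11.15, pandas 2.3.3 and scipy 1.17.1 were used.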

Additional observations from a re-analysis of the deposited data

How the results depend on the processing

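Of 48 alternatives to 12 values, 39 stayed within 1.5 times the value reported. At elav every alternative did: its reproducible peaks numbered 2 to 4, and its promoter summit was found at 500 bp, at 5000 bp, in the 2933 strongest peaks and in the strongest 5867 peaks of each replicate. At fne the count of reproducible peaks was 0 and the promoter had no summit under every alternative. The number of fne peaks found in both replicates was 1 with summits within 100 bp and 3 with summits within 200 bp, with intervals that overlap by 1 bp, and with intervals that overlap by 50% of the shorter. Rbp9 depended on the settings most among the 3. Its 2 reproducible peaks became 1 with a flank of 2000 bp and 1 among the 2933 strongest, and with 1 replicate left out they numbered 1 to 2. Its promoter summit (1 for present, 0 for absent) became 0 at 500 bp and 0 among the 2933 strongest, and with 1 replicate left out it was 0 to 1, being absent where replicate 3 stood alone. By construction the narrower settings leave out the summit at 900 bp or the peak at gammaTub23C. No paired analysis was possible because there is 1 group. The relaxed lists end at 30000 peaks, with lowest signals of 21.4 in replicate 2 and 31.1 in replicate 3, so a peak missing from a list may lie below its end and is not shown to be absent. The dm3 lists were not run, since no dm3 annotation was used here.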

Other observations

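The window at the reproducible summit between Rrp1 and gammaTub23C, at the edge of the Rbp9 locus, held 22.4% G and C. Over 5867 reproducible windows the median was 38.3%, the range from the 5th to the 95th percentile was 29.4 to 52.7%, and 0.0170% of windows were lower. The elav intron window lay inside that range but in its upper part, at 51.2%, with 92.6% of windows lower. The elav upstream window, 844 bp away, was at 37.8%.

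Some weak peaks of elav and Rbp9 had their summit in the 3′ UTR, and none of fne did. The pooled list had 3 in elav, 1 in Rbp9 and 0 in fne, replicate 2 had 2, 1 and 0, and replicate 3 had 4, 2 and 0. The fourth of replicate 3 at elav, with a signal of 71.2, lay 187 bp from the TSS of arg on the other strand. No coding exon of the 3 genes held a summit in any of the 4 lists. The shares of 3′ UTR and coding exon summits over all peaks were not computed. The lengths of these parts were not taken into account, so the counts do not show an excess or a lack.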
